A study of Homo sapiens with 6 samples.

Results

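The 51 genes described here encode the machinery of mitosis and cytokinesis, namely mitotic kinases, kinetochore and spindle proteins, condensin subunits, cytokinesis factors and regulators of the anaphase-promoting complex (APC/C). They were chosen by name, as the genes whose symbols match a hand-written list, and all 51 were found among the 23228 genes of the count tables. The list was chosen with earlier results of these data known, so its share of lowered genes is not independent of these data. Expression was read from 6 poly(A) RNA libraries of RL95-2, a line of human endometrial carcinoma cells. The 3 control libraries came from cells kept without serum in equal parts of RPMI and DMEM. The 3 ADP-CM libraries came from cells kept in equal parts of serum-free RPMI and ADP-CM. ADP-CM is the medium conditioned by primary adipocytes from visceral adipose tissue of female patients with a high body mass index. The treatment lasted 24 h. The sources do not give the number of adipose donors behind the medium, nor do they say whether the 3 libraries of a group came from separate cultures, so the p-values measure the spread between these libraries, which may be technical.

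Cells enter mitosis when CDK1 bound to cyclin B is activated by CDC25 phosphatases. Chromosomes are then compacted by condensin, attached to the spindle through kinetochores and held by the spindle checkpoint until the APC/C, loaded with CDC20, marks securin and cyclin B for destruction. RNAs of these genes are known to accumulate in G2 and mitosis under the MYB-MuvB complex and FOXM1, and to be repressed in resting cells by the DREAM complex. In bulk RNA, fewer cells in G2 or mitosis and less RNA per such cell cannot be told apart.

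Most of the mitosis and cytokinesis genes were slightly lower in ADP-CM. All 51 passed the filter on low counts, and 28 were lowered by edgeR (quasi-likelihood test, Benjamini-Hochberg adjusted p-value under 0.01 over the 12663 genes tested), a share of 54.9% where 13% of all tested genes were lowered. By the same test 0 members were raised, where 13.5% of all tested genes were. At an unadjusted p-value under 0.05 (edgeR), 37 members were lower and 2, AURKA and CDC20, were higher. Of the 12663 tested genes, 2835 were lower and 2859 higher at that limit. DESeq2 called 20 members lowered, all of them among the 28, and 0 raised. It also called fewer of all tested genes than edgeR, so the 13% is not its background (its counts are given in the last section). The 8 of the 28 that it did not call were TTK, BUB1, INCENP, CDCA8, FBXO5, UBE2C, NCAPG and RACGAP1 (adjusted p-values from 0.0108 for BUB1 to 0.0549 for FBXO5). The median log2 fold change (ADP-CM over control) of the 51 genes was -0.10, against -0.0023 over all tested genes. The changes were small. KIF4A, with the largest change, fell by 22.3%, and 0 members passed a 1.5-fold change in edgeR or in DESeq2. Of all tested genes, 2.27% passed this limit together with that on the adjusted p-value, and 1.14% were lowered past both.

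**Figure D1:**
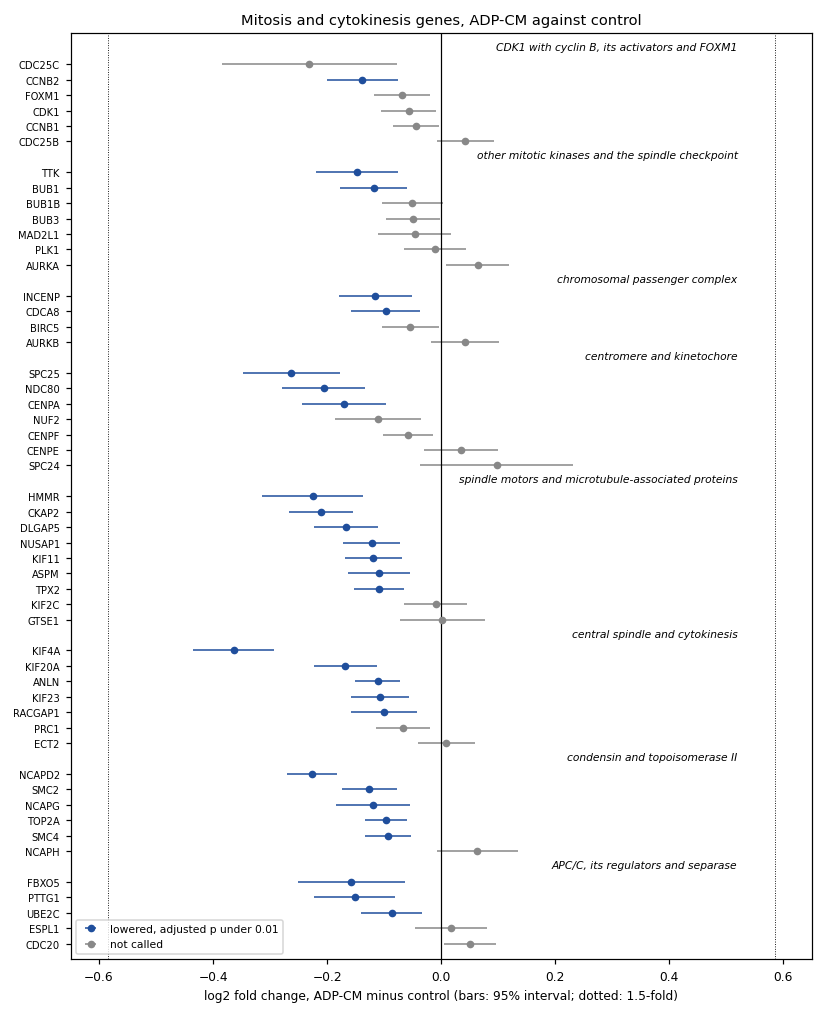
Log2 fold change of each of the 51 genes, ADP-CM minus control, grouped by role, with bars for the 95% interval from edgeR's quasi-likelihood fit (3 libraries per group) and dotted lines at a 1.5-fold change. The 28 lowered genes (blue) lie between -0.36 and -0.086, and the intervals of all 51 stay inside the dotted lines.

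The 3 ADP-CM libraries all lay below the 3 control libraries for 33 of the 51 genes, where this held for 22.8% of all tested genes, and all above them for 3 (CENPE, NCAPH and CDC20), where the share over all tested genes was 22.7%. The members had 299 to 17499 reads per library on average, and the median standard error of their log2 fold changes was 0.028, against 0.053 over all tested genes. Among the 8445 tested genes within the members' range of mean level, 15.7% were lowered. Summed over the 51 genes, the level was 11379, 11432 and 11396 CPM (counts per 1e+06 library counts after TMM scaling) in control replicates 1, 2 and 3, and 10762, 10918 and 10593 CPM in ADP-CM replicates 1, 2 and 3. The sums of the groups did not overlap. ADP-CM replicate 3 held the lowest value of 28 members, against 7 and 8 in ADP-CM replicates 1 and 2. Without ADP-CM replicate 3, 25 members were lowered, of them 23 of the 28. The median log2 deviation of the members from the ADP-CM group mean was 0.022 in replicate 2 (36 of 51 above it). In ADP-CM replicate 3 it was -0.022 (15 of 51 above). Over all tested genes these medians were 0.00043 and 0.00075. In the control libraries and ADP-CM replicate 1 the members' median deviation from the group mean lay between -0.0014 and 0.0010 (25 or 26 of 51 above). Members thus moved together between ADP-CM replicates 2 and 3, and the 28 calls are not independent of each other.

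**Figure D2:**
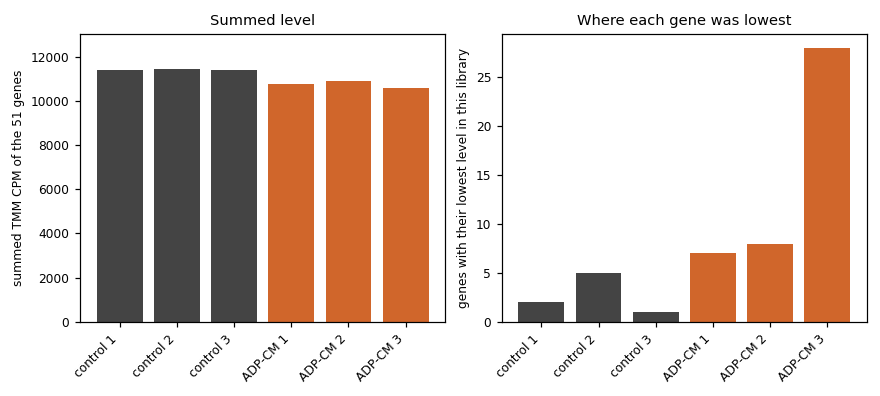
Left, summed TMM CPM of the 51 genes in each library, which lies between 11379 and 11432 in control and between 10593 and 10918 in ADP-CM. Right, the number of the 51 genes whose lowest level fell in each library, with 28 in ADP-CM replicate 3.

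Promoters of mitotic genes are known for CHR elements, bound by the MuvB core of the DREAM and MYB-MuvB complexes, and for CCAAT boxes, bound by NF-Y. RefSeq windows of 250 bases before to 50 bases after the gene start (build GRCh38.p14) were found for 43 of the 51 genes, and not for FOXM1, AURKA, TTK, BUB3, BIRC5, TPX2, RACGAP1 and UBE2C. Of these 43 genes, 34 (79.1%) held TTTGAA or TTCGAA, the usual CHR letters, in at least 1 window, against 19.5% of the 27305 genes of the promoter table. CCAAT was found for 33 (76.7%), against 39.7%, and CCAAT together with either CHR form in the same window for 27 (62.8%), against 7.85%. Both strands were searched, and 1 match of CCAAT overlapped 1 of TTTGAA. The TTTGAA matches began a median of 28.5 bases before the start and those of CCAAT 87 bases before it. Of the 24 lowered genes with a window 21 held a CHR form, and of the 19 not called 13 did. A match is a description of the letters and does not show that a factor binds there.

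Of the lowered genes with a window, KIF20A and PTTG1 held CCAAT but no CHR form, and CKAP2 held neither. The 6 windows printed here are examples picked by hand. Of these, 4 are from lowered genes (KIF4A, with the largest fall, NCAPD2, with the smallest p-value, CCNB2 and HMMR). The other 2, of CCNB1 and PLK1, are from genes that were not called. Such a choice cannot show how the letters go with the response. All 6 windows are from GRCh38.p14 and written 5′ to 3′ on the strand of the gene. Capitals mark the motifs named above on either strand.
KIF4A, chrX:70289854-70290153, + strand: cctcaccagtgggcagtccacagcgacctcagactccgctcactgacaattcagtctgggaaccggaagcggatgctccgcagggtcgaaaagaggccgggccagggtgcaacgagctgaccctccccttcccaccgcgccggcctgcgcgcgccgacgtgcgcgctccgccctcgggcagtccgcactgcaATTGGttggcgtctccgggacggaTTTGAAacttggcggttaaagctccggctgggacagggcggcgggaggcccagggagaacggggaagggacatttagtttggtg
NCAPD2, chr12:6493852-6494151, + strand: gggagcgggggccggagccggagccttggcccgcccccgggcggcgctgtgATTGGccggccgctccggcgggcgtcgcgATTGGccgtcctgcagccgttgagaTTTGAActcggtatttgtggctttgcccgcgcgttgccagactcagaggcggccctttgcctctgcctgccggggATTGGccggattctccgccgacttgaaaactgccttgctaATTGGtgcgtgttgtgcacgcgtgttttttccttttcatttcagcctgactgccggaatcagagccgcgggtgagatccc
CCNB2, chr15:59104896-59105195, + strand: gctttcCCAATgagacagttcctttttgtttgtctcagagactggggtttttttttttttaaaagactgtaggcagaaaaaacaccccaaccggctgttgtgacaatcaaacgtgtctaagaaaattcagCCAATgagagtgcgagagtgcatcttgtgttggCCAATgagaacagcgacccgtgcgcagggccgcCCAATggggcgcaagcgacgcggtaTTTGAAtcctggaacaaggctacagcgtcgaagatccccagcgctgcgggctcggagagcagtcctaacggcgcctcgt
HMMR, chr5:163460382-163460681, + strand: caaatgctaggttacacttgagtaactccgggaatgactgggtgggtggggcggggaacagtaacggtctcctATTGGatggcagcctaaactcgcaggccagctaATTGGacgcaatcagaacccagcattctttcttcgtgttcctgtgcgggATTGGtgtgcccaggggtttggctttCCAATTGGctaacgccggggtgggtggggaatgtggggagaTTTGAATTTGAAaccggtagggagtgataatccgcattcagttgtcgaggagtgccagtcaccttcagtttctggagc
CCNB1, chr5:69166900-69167199, + strand: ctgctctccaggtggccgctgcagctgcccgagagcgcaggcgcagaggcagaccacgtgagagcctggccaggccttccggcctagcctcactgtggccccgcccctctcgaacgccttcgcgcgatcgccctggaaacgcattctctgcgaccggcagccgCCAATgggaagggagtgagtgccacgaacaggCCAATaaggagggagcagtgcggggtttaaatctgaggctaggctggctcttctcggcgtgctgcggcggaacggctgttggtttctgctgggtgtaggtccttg
PLK1, chr16:23678639-23678938, + strand: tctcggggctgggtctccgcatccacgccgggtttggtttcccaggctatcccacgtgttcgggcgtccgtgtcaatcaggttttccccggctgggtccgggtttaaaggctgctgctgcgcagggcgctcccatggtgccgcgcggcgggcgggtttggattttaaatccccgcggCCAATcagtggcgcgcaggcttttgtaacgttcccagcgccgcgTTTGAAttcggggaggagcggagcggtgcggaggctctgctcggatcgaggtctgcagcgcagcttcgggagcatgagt
HMMR held TTTGAA 2 times in direct succession, and CCNB2 had CCAAT 4 times. CCNB1 held CCAAT but neither CHR form in this window. PLK1 held 1 CCAAT and 1 TTTGAA, as KIF4A did, and was not called.

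Among the 6 genes of CDK1, cyclin B, their activators and FOXM1, 1 was lowered (16.7%, close to the 13% of all tested genes). CCNB2, a B-type cyclin at chr15:59397325-59417244 in GRCh37, had 125, 127 and 126 CPM in the control libraries and 114, 117 and 113 CPM in the ADP-CM libraries. The groups did not overlap, and the log2 fold change was -0.14 (SE 0.031, adjusted p-value 0.000252, edgeR). Its paralog CCNB1 at chr5:68462962-68474072 in GRCh37, the member with the highest level per exon length (210.2 ± 1.20 CPM per kb in control, SD, n = 3), had 513, 508 and 513 CPM in control and 495, 493 and 499.6 CPM in ADP-CM. All 3 ADP-CM values of CCNB1 lay under the control values, but the log2 fold change of -0.044 (95% interval -0.084 to -0.0045) was not past the threshold (adjusted p-value 0.0737, edgeR). CDK1, the kinase itself, had 324, 326 and 342 CPM in control and 317, 328 and 309 CPM in ADP-CM, so the groups overlapped. Its log2 fold change was -0.057, with an adjusted p-value of 0.0541 that depended on single libraries (edgeR). It was -0.080 without ADP-CM replicate 2 (adjusted p-value 0.00832, edgeR), but -0.032 without control replicate 3 (0.379) and -0.037 without ADP-CM replicate 3 (0.236).

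FOXM1, a transcription factor of G2 and mitotic genes, had 259, 259 and 252 CPM in control and 243, 242 and 249 CPM in ADP-CM. These groups did not overlap, the log2 fold change was -0.069, and the adjusted p-value of 0.0212 was 0.00678 without ADP-CM replicate 3 and between 0.0169 and 0.0963 without any other library (edgeR). FOXM1 lies opposite ITFG2 over 15.9% of its exonic bases, and the strand setting of the counting is not given in the sources used here. CDC25C, a phosphatase that activates CDK1, was the member with the lowest level per exon length, at 16.5, 18.5 and 20.5 CPM in control and 14.3, 16.4 and 16.7 CPM in ADP-CM. The groups overlapped, and its log2 fold change of -0.23 had the widest error of all members (95% interval -0.38 to -0.078, adjusted p-value 0.0135). Without control replicate 1 or ADP-CM replicate 3 that adjusted p-value was 0.00232 or 0.00563 (edgeR). Without control replicate 3 the log2 fold change was -0.15 (0.184), and without ADP-CM replicate 1 it was -0.16 (0.132). CDC25B, the related phosphatase, had a log2 fold change of 0.042 (95% interval -0.0078 to 0.092).

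Of the 7 other mitotic kinases and spindle checkpoint genes 2 were lowered (28.6%, against 13% of all tested genes). TTK, the checkpoint kinase MPS1, had 121, 124 and 123 CPM in control and 114, 118 and 100.1 CPM in ADP-CM. ADP-CM replicate 3 was the lowest, and the log2 fold change of -0.15 (adjusted p-value 0.000677) was -0.082 without it, with an adjusted p-value of 0.0475 (edgeR). BUB1, a kinase that recruits checkpoint proteins to kinetochores, had 182, 172 and 174 CPM in control and 164, 168 and 154 CPM in ADP-CM. The groups did not overlap, and the log2 fold change was -0.12. The adjusted p-value of 0.000946 was 0.0174 without ADP-CM replicate 3 and 0.0234 without control replicate 1 (edgeR).

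PLK1, a kinase needed for spindle assembly and cytokinesis (chr16:23688977-23701688, GRCh37), showed no difference beyond its spread, with 202, 193 and 199.9 CPM in control and 200.1, 191 and 199 CPM in ADP-CM. Its log2 fold change was -0.011, with a 95% interval of -0.065 to 0.043. The centrosomal kinase AURKA was numerically higher, at 172.96, 167 and 176 CPM in control and 181, 183 and 175 CPM in ADP-CM, with overlapping groups and an adjusted p-value of 0.0642 (edgeR). The checkpoint proteins BUB1B, BUB3 and MAD2L1 had log2 fold changes of -0.051, -0.050 and -0.046, and none passed the threshold (adjusted p-values 0.13, 0.0901 and 0.269, edgeR). That of BUB1B was -0.030 without ADP-CM replicate 3.

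The chromosomal passenger complex, which corrects faulty attachments and then acts in cytokinesis, had 2 lowered genes of 4 (50%, against 13% of tested genes). Its scaffold INCENP had 118, 118 and 116 CPM in control and 109, 104.4 and 111 CPM in ADP-CM, a log2 fold change of -0.12 (adjusted p-value 0.00319, edgeR). CDCA8, or borealin, had 145, 137 and 146 CPM in control and 133, 135 and 132 CPM in ADP-CM, a log2 fold change of -0.097 (adjusted p-value 0.0085, edgeR). For both genes the groups did not overlap, but neither call was firm. That of INCENP was lost without control replicate 1 or 2 or ADP-CM replicate 1 or 2 (adjusted p-values 0.0157, 0.0186, 0.0101 and 0.0283), and that of CDCA8 without control replicate 1 or 3 or ADP-CM replicate 1 or 3 (0.0476, 0.0749, 0.0387 and 0.0204, all by edgeR). The kinase AURKB had 141, 143 and 141 CPM in control and 141, 145 and 151 CPM in ADP-CM, with a log2 fold change of 0.041 (95% interval -0.019 to 0.10). BIRC5, or survivin, had -0.054 (adjusted p-value 0.0837, edgeR).

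At the centromere and kinetochore 3 of 7 genes were lowered (42.9%, against 13% of all tested genes). SPC25, a subunit of the NDC80 complex that binds microtubules (chr2:169690642-169769881, GRCh37), had 67.5, 62.3 and 64.0 CPM in control and 53.1, 51.9 and 56.4 CPM in ADP-CM. All ADP-CM values lay below all control values, and the log2 fold change was -0.26 (SE 0.042, adjusted p-value 7.16e-07, edgeR). NDC80 itself had 88.4, 87.3 and 86.5 CPM in control and 73.7, 79.5 and 74.2 CPM in ADP-CM, a log2 fold change of -0.21 (adjusted p-value 4.93e-06, edgeR). CENPA, the histone H3 variant that marks centromeres, fell from 84.1, 81.7 and 80.5 CPM to 74.1, 74.1 and 70.7 CPM, a log2 fold change of -0.17 (adjusted p-value 0.000141, edgeR). The groups were separate for NDC80 and CENPA as well. The remaining subunits of the NDC80 complex were not called, NUF2 with a log2 fold change of -0.11 (adjusted p-value 0.0158, edgeR) and SPC24 with 0.097 (95% interval -0.037 to 0.23) on 19.0 to 22.9 CPM. The adjusted p-value of NUF2 was 0.00491 without ADP-CM replicate 2 and between 0.0245 and 0.087 without any other library (edgeR), and the log2 fold change of SPC24 was 0.040 without ADP-CM replicate 3. The large kinetochore protein CENPF had -0.058 (adjusted p-value 0.0312, edgeR), which was -0.087 without ADP-CM replicate 2 (0.00117) and -0.024 without ADP-CM replicate 3 (0.398). The motor CENPE had 0.034 (95% interval -0.031 to 0.099).

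Spindle motors and microtubule-associated proteins had 7 lowered genes of 9 (77.8%, against 13% of all tested genes). CKAP2, a microtubule-stabilizing protein (chr13:53029564-53050763, GRCh37), had 228, 226 and 228 CPM in control and 192, 209 and 189 CPM in ADP-CM. The mean fell by 13.6%, and the groups were separate (log2 fold change -0.21, SE 0.028, adjusted p-value 5.74e-09, edgeR). DLGAP5, or HURP, which stabilizes kinetochore fibres, had 176, 176 and 178 CPM in control and 157, 161 and 153 CPM in ADP-CM, a log2 fold change of -0.17 (adjusted p-value 1.72e-06, edgeR). HMMR, a spindle protein that is also a hyaluronan receptor (chr5:162887209-162918947, GRCh37), fell from 57.7, 57.3 and 54.4 CPM to 50.3, 47.6 and 47.0 CPM, a log2 fold change of -0.23 (adjusted p-value 3.36e-05, edgeR). For these 3 genes the groups did not overlap.

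TPX2, the activator of AURKA on the spindle, NUSAP1, a microtubule-bundling protein, KIF11, the motor that separates spindle poles, and ASPM, a spindle pole protein, were lowered by log2 fold changes between -0.12 and -0.11. The call of ASPM was lost without control replicate 2 (adjusted p-value 0.0146, edgeR). In the GENCODE annotation NUSAP1 shares 86.8% of its exonic bases with other genes on its strand. Reads were counted on RefSeq genes, so the effect of this overlap on the NUSAP1 count is not known. The microtubule depolymerase KIF2C and GTSE1 had log2 fold changes of -0.0094 and 0.0021, with 95% intervals of -0.065 to 0.046 and -0.073 to 0.077.

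Central spindle and cytokinesis genes included the largest fall, with 5 of 7 genes lowered (71.4%, against 13% of all tested genes). KIF4A, a chromokinesin that also sets the length of the central spindle, lies at chrX:69509954-69640736 (GRCh37). It had 93.2, 90.7 and 91.2 CPM in control and 71.3, 70.8 and 71.6 CPM in ADP-CM. The gap between the groups was many times the spread within them, and the log2 fold change was -0.36 (SE 0.036, adjusted p-value 3.11e-13, edgeR). KIF4A has a near-identical intronless copy, KIF4B, on which 287 to 335 reads per library were counted, and reads that align to both places are left out by HTSeq, so the count of KIF4A is incomplete. KIF20A, which carries the passenger complex to the central spindle, fell from 182, 177 and 176 CPM to 157, 161 and 157 CPM, a log2 fold change of -0.17 (adjusted p-value 1.23e-06, edgeR). ANLN, the actin-binding scaffold of the contractile ring, had 609.7, 628 and 625 CPM in control and 582, 581 and 561 CPM in ADP-CM, a log2 fold change of -0.11 (adjusted p-value 6.03e-06, edgeR). Neither gene had overlapping groups.

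KIF23 and RACGAP1, which together form the centralspindlin complex, were lowered with log2 fold changes of -0.11 and -0.10. The call of KIF23 was lost without control replicate 2 (adjusted p-value 0.0189, edgeR), and that of RACGAP1 without control replicate 1 or 3 or ADP-CM replicate 1 or 2 (0.0252, 0.0414, 0.0229 and 0.0116, edgeR). PRC1, which bundles the microtubules of the central spindle, had -0.067 (adjusted p-value 0.0229, edgeR), and that p-value was 0.00523 without control replicate 3 and between 0.0201 and 0.162 without any other library. PRC1 shares 57.6% of its exonic bases with another annotated gene on its strand. ECT2, the RhoA activator of cytokinesis, had 0.0092 (95% interval -0.040 to 0.059).

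**Figure D3:**
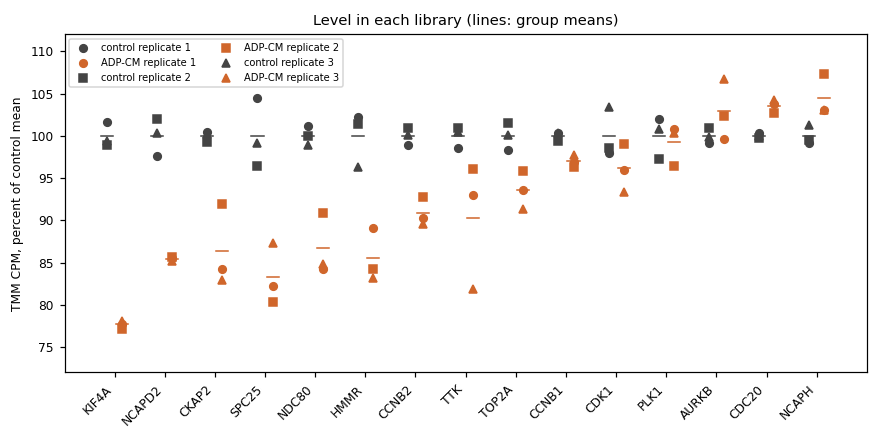
TMM CPM of 15 of the genes in each of the 6 libraries, as a percentage of the control mean (grey control, orange ADP-CM, symbols for replicate numbers, lines for group means; the axis does not start at 0). KIF4A, NCAPD2, CKAP2, SPC25 and NDC80 have separate groups, while CDK1, PLK1 and AURKB overlap and CDC20 and NCAPH lie slightly above control.

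For condensin and topoisomerase II, 5 of 6 genes were lowered (83.3%, against 13% of all tested genes). NCAPD2, a condensin I subunit (chr12:6602522-6641121, GRCh37), had the smallest p-value of all members, with 398, 416 and 409 CPM in control and 349, 349 and 347 CPM in ADP-CM. The log2 fold change was -0.23 (SE 0.022, adjusted p-value 2.05e-13, edgeR), and the groups did not overlap. SMC2, the ATPase of both condensins, fell from 265, 271 and 271 CPM to 245, 251 and 243 CPM, a log2 fold change of -0.13 (adjusted p-value 2.17e-05, edgeR). TOP2A, which untangles sister chromatids (chr17:38544777-38574148, GRCh37), had the most reads of all members, at 1017, 1049.7 and 1036 CPM in control and 968, 991 and 944 CPM in ADP-CM. Its groups were separate (log2 fold change -0.096, adjusted p-value 2.17e-05, edgeR). SMC4, the partner of SMC2, and NCAPG, a condensin I subunit, were lowered with -0.093 and -0.12, and the call of NCAPG was lost without control replicate 3 or ADP-CM replicate 1 or 3 (adjusted p-values 0.116, 0.0108 and 0.0104, edgeR). Without control replicate 3 the log2 fold change of NCAPG was itself smaller, at -0.071. SMC4 and NCAPG lie opposite other genes over 22.0% and 33.7% of their exonic bases. NCAPH, the kleisin of condensin I, had 81.2, 81.5 and 82.9 CPM in control and 84.3, 87.9 and 84.4 CPM in ADP-CM, a log2 fold change of 0.063 (adjusted p-value 0.159, edgeR), which was 0.042 without ADP-CM replicate 2.

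Of the 5 APC/C regulators and separase 3 were lowered (60%, against 13% of all tested genes). PTTG1, or securin, the inhibitor of separase, had 95.2, 94.6 and 95.8 CPM in control and 90.8, 83.6 and 83.0 CPM in ADP-CM, a log2 fold change of -0.15 (adjusted p-value 0.000459, edgeR). PTTG1 has close copies, PTTG2 and PTTG3P, on each of which between 245 and 383 reads per library were counted. FBXO5, or EMI1, an inhibitor of the APC/C, had 48.4, 52.0 and 48.4 CPM in control and 45.6, 45.04 and 42.8 CPM in ADP-CM, a log2 fold change of -0.16 (adjusted p-value 0.00575, edgeR). The groups of PTTG1 and FBXO5 did not overlap, but FBXO5 lost its call without control replicate 2 or ADP-CM replicate 3 (0.0713 and 0.035, edgeR). UBE2C, the ubiquitin-conjugating enzyme of the APC/C, had 218, 219 and 206 CPM in control and 200.01, 199.5 and 206 CPM in ADP-CM. Its groups overlapped, and its call (log2 fold change -0.086, adjusted p-value 0.00775) was lost without control replicate 1 or 2 or ADP-CM replicate 1 or 2 (0.0505, 0.0779, 0.0487 and 0.0248, edgeR). CDC20, the activator of the APC/C in mitosis, was numerically higher, at 311, 309 and 310.1 CPM in control and 322, 319 and 323 CPM in ADP-CM, and missed the threshold (log2 fold change 0.051, adjusted p-value 0.0696, edgeR). ESPL1, or separase, had 0.017 (95% interval -0.046 to 0.081).

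Partners within a complex or family can be set against each other within each library, which removes the scaling between libraries. In each of the 6 pairs, chosen after their values were seen, a lowered gene was set over a partner that was not called. Lower ratios in ADP-CM follow largely from that choice, and the log2 ratios are a description with no test. Partners lowered together, such as KIF23 and RACGAP1 or SMC2 and SMC4, are not among the 6 pairs. NCAPD2 over NCAPH, subunits of condensin I, was 2.29, 2.35 and 2.30 in control and 2.05, 1.99 and 2.04 in ADP-CM. SPC25 over SPC24, which bind each other in the NDC80 complex, was 1.71, 1.71 and 1.68 in control and 1.41, 1.31 and 1.30 in ADP-CM. In both pairs every ADP-CM ratio lay below every control ratio. The same held for KIF4A over PRC1, which binds KIF4A on the central spindle, for INCENP over AURKB and for CCNB2 over CCNB1, with differences in mean log2 ratio of -0.30, -0.16 and -0.094. The ratios of PTTG1 over ESPL1 differed by -0.17, and the groups overlapped.

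The 23 members that were not called were not shown to be unchanged. Of these, 13 had a log2 fold change below 0 and 10 above it, and the 95% interval lay wholly below 0 for 9, wholly above it for 2 (AURKA and CDC20) and across it for 12. Their intervals ran from -0.38 at the lowest (CDC25C) to 0.23 at the highest (SPC24), so a 1.5-fold change lay outside every one of them. The members lie on 21 chromosomes, with at most 6 on 1 of them. Across the 51 genes, which are not independent replicates and share the same libraries, the log2 fold change had a Spearman correlation of 0.20 with the control level and of 0.13 with exon length.

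Other genes of the same processes, from lists written by hand with earlier results of these data known, also tended to be lower. Together the 6 lists of further mitosis genes held 135 genes, all tested. By the same edgeR call 42 (31.1%) were lowered and 8 (5.93%) raised, against 13% and 13.5% of all tested genes. The median log2 fold change of the 135 genes was -0.075. Among 34 further centromere and kinetochore genes 11 were lowered and 0 raised (2 were higher at an unadjusted p-value under 0.05 in edgeR, and DESeq2 raised 0), with a median of -0.099, and the lowered genes were 6 without control replicate 3 or without ADP-CM replicate 1. ZWINT, a kinetochore protein that binds the outer kinetochore scaffold, fell from 258 ± 2.81 to 213 ± 3.56 CPM (SD, 3 libraries a group). HJURP, the chaperone of CENPA, and MLF1IP, now CENPU, had log2 fold changes of -0.22 and -0.21. Of 25 spindle genes, with a median of -0.080, 10 were lowered (6 without control replicate 2, 5 without ADP-CM replicate 1), among them STMN1, FAM64A (now PIMREG) and KIFC1 with log2 fold changes of -0.16, -0.34 and -0.20, and KIF14 was raised (0.12).

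In the list of further condensin and cohesin genes 5 of 19 were lowered (26.3%, against 13% of all tested genes), and 3 without control replicate 2 or 3. Of the 19 genes, 12 had a log2 fold change below 0 and 7 above it. Cohesin, which holds sister chromatids together, was represented by SMC1A and STAG1 among the lowered genes. Its subunit RAD21 (-0.053) and its regulators PDS5A, PDS5B and WAPAL, now WAPL (0.064, 0.13 and 0.080), were not called. SMC1A fell from 517 ± 5.44 to 423 ± 1.60 CPM (SD, 3 libraries a group), and the cohesin subunit STAG1 and the cohesin acetyltransferase ESCO2 had log2 fold changes of -0.21 and -0.32. SGOL1, or shugoshin, which protects cohesin, and the condensin II subunit NCAPD3 had -0.18 and -0.080. Neither call was firm, as that of NCAPD3 was lost in each fit without 1 library except that without ADP-CM replicate 3 (adjusted p-values 0.0211 to 0.0453), with plain library sizes (0.0121), with no filter on low counts (0.0121) and with DESeq2 (0.0352). That of SGOL1 was lost without control replicate 2 or 3 or ADP-CM replicate 3 (0.0264, 0.0215 and 0.032, edgeR) and with DESeq2 (0.0351). TOP2B was the 1 raised gene (0.31, adjusted p-value 0.00965, edgeR), a call that was lost without control replicate 1 or 2 or ADP-CM replicate 1 or 3 (adjusted p-values 0.06, 0.129, 0.0391 and 0.0258, edgeR) and with DESeq2 (0.0928). The list's median log2 fold change was -0.053. MKI67, whose product Ki67 coats mitotic chromosomes and is used as a marker of proliferation, had 700.1, 714 and 681 CPM in control and 693, 696 and 677 CPM in ADP-CM. These groups overlapped, with a log2 fold change of -0.020 and a 95% interval of -0.059 to 0.019. Among 26 entry kinases, cyclins and phosphatases 10 (38.5%) were lowered and 2 (7.69%), NEK6 and NEK9, raised (1 without ADP-CM replicate 1). Of all tested genes, 13% were lowered and 13.5% raised. The median log2 fold change of these 26 genes was -0.056. NEK6, a mitotic kinase, rose from 19.99 ± 0.792 to 30.4 ± 1.42 CPM (SD, 3 libraries a group), the 1 gene of the 6 lists past a 1.5-fold change, while the kinase PBK and the phosphatase subunit PPP1CA fell by 0.24 and 0.21 on the log2 scale.

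Of 16 further genes of the APC/C, its subunits with FZR1 and UBE2S, 2 were lowered (1 without control replicate 3) and 2 raised (1 without ADP-CM replicate 1). These shares of 12.5% each were close to those over all tested genes (13% and 13.5%). Their median log2 fold change was -0.025. ANAPC16 and C11orf51 (now ANAPC15) fell by 0.27 and 0.19 on the log2 scale, the latter with a call that was lost without control replicate 3 (adjusted p-value 0.0131, edgeR) and with DESeq2 (0.0167). CDC16 and ANAPC13 were higher by 0.18 and 0.14, and the call of ANAPC13 was lost without control replicate 2 or ADP-CM replicate 1 (0.0416 and 0.0376, edgeR) and with DESeq2 (0.0296). Of the 15 genes of the DREAM and MYB-MuvB list, which holds regulators as well as subunits of these complexes, 4 (26.7%) were lowered and 2 (13.3%) raised. The share raised was close to the 13.5% of all tested genes. The median log2 fold change of these 15 genes was -0.10. LIN54, the DNA-binding subunit that recognizes CHR elements, fell from 99.1 ± 2.67 to 71.4 ± 0.5197 CPM (SD, 3 libraries a group), or by 0.47 on the log2 scale (adjusted p-value 7.74e-18, edgeR). MYBL2, the activating subunit, and the repressor E2F7 had log2 fold changes of -0.19 and -0.20, and E2F4 and E2F5 were the raised genes, at 0.12 and 0.26. The call of E2F4 was lost without control replicate 2 or 3 or ADP-CM replicate 3 (adjusted p-values 0.0152, 0.0244 and 0.06, edgeR) and with DESeq2 (0.0264), and without ADP-CM replicate 3 its log2 fold change was 0.076. DYRK1A, the kinase that promotes DREAM assembly and the fourth lowered gene, had -0.13, a call that was lost in each fit without 1 library except that without ADP-CM replicate 2 (0.0102 to 0.0486, edgeR) and with DESeq2 (0.0457).

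The list of DNA replication and G1/S genes, which act earlier in the cycle, moved in the same direction. In it 22 of 50 genes were lowered (44%, against 13% of all tested genes) and 0 were raised. At an unadjusted p-value under 0.05 in edgeR 1 was higher, and DESeq2 raised 0. The median log2 fold change of the list was -0.096. RRM2, TYMS and CCNE2 had log2 fold changes of -0.37, -0.25 and -0.60, and CCNE2, or cyclin E2, fell from 77.2 ± 3.04 to 50.8 ± 1.92 CPM (SD, 3 libraries a group). The difference between this list and the mitosis genes was not tested. Of the 42 replication genes with a promoter window 3 held a CHR form (7.14%).

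**Figure D4:**
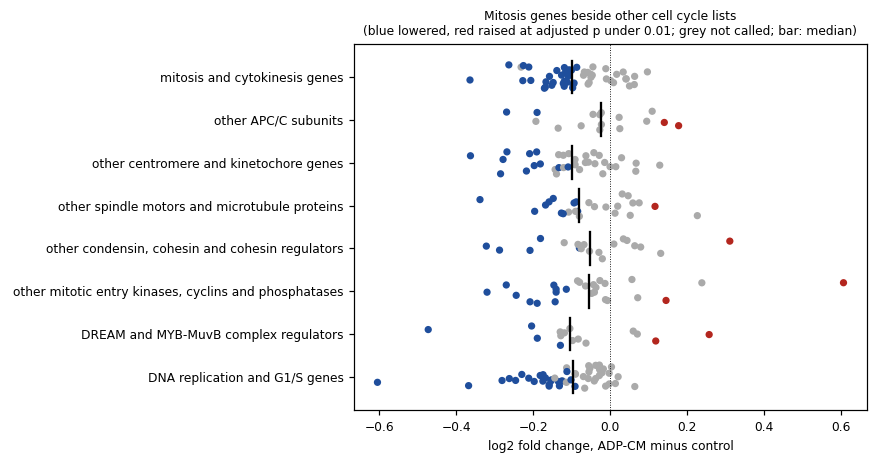
Log2 fold change (ADP-CM minus control) of every tested gene of the mitosis and cytokinesis genes and of 7 further lists, with a bar at each median (blue lowered, red raised at an adjusted p-value under 0.01, grey not called; vertical jitter only separates points). The medians run from -0.10 to -0.025, and NEK6 at 0.61 and CCNE2 at -0.60 are the outermost points.

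Some measures of the libraries moved with the groups beside these results. The reads counted on genes ranged from 16262614 to 18363033 and were more in each ADP-CM library than in any control library, and the share of counted reads on no gene was 10.3% ± 0.0528 in control and 11.5% ± 0.0331 in ADP-CM (SD over 3 libraries). The epithelial markers EPCAM, KRT8, KRT18, KRT19, CDH1 and CLDN4 were all tested, and their summed level was 3991 to 4062 CPM in control and 3314 to 3357 CPM in ADP-CM. Of 6 adipocyte markers 0 passed the filter, ADIPOQ, LEP and CIDEA had 0 reads in every library, and no marker had more than 11 reads in any library. The sum of 6 stromal markers was 61.5 to 68.4 CPM in control and 78.3 to 79.1 CPM in ADP-CM, nearly all of it COL1A1, with THY1 at 0. For 6 leukocyte markers it was 6.96 to 8.17 and 9.87 to 12.0 CPM, mainly CD68, and for 6 endothelial markers 60.9 to 67.1 and 54.6 to 62.2 CPM, mainly CDH5, with KDR and EMCN at 0. The part of depth, reads on no gene or these markers in the result was not tested.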

How the data were processed

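RL95-2 cells were sequenced in 6 libraries (50 bp single reads, 3 control and 3 ADP-CM). Alignment to hg19 was done by the authors in TopHat2 and counting on NCBI RefSeq genes in HTSeq, and the deposited values are raw counts of reads per gene, 1 table a library. The submitters' processing notes also name bcl2fastq and SAMtools. Versions and the strand setting are not given in the sources used here. HTSeq summary lines, which name no gene, were left out of library sizes and tests. Groups and replicate numbers came from the sample labels, and no 2 replicates agreed within sampling noise (chi-square test over genes).

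From the counts, edgeR 4.0.16 in R 4.3.3 (TMM scaling, filterByExpr defaults, quasi-likelihood test, Benjamini-Hochberg adjustment over 12663 of 23228 genes) compared ADP-CM with control, with calls at an adjusted p-value under 0.01 and, where said, a fold change over 1.5, the limits of the study's methods. Intervals are the log2 fold change ± the t quantile times its standard error. CPM are TMM-scaled counts. The common biological coefficient of variation was 1.67%. The scripts were tested on simulated data, with changes larger than those of most members. Alternatives were DESeq2 1.42.0, its size factors or plain library sizes in edgeR, a robust fit, no filter on low counts, a minimum of 10 counts in each library, an adjusted p-value under 0.05, a replicate term and each library left out.

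Positions and exon lengths came from GENCODE release 44 lifted to GRCh37, the build of the files, and promoter windows from RefSeq on GRCh38.p14. The genes and lists were chosen with earlier results of these data known. Values in each library are given for up to 3 called members of each role with the smallest p-values, members at the extremes of level per exon length and 7 genes set by name (CCNB1, CDK1, PLK1, AURKB, TOP2A, FOXM1 and MKI67), and up to 3 called genes of each further list are named. Other genes named, with fold changes or with values in each library (AURKA, CDC20 and NCAPH), were added after their values were seen. The other experiments of the study were not analysed here.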

Additional observations from a re-analysis of the deposited data

Results flagged for a closer look

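The share of counted reads that lay on no gene, which no comparison above uses, was higher in all 3 ADP-CM libraries than in any control library, with means of 11.5% and 10.3% (SD 0.0331 and 0.0528, n = 3 each). Groups of 3 are too small for a search for outlying samples.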

How the results depend on the processing

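The number of lowered members stayed within 1.5 times of 28 in all 14 alternatives. It was 20 with DESeq2, 23 to 28 when each library was left out, and 33 at an adjusted p-value under 0.05. That looser limit also calls more of all tested genes, so the 33 cannot be set against the 13% found at 0.01. Of the 28 genes 18 were lowered in every alternative, and 10 lost the call without at least 1 library. The count of raised members and of members past a 1.5-fold change was 0 throughout, and the median log2 fold change of the members lay between -0.11 and -0.085 when each library was left out. Another scaling moved the median over all tested genes to between -0.0019 and 0.00071. PLK1, at -0.011, ran from -0.031 to 0.0078 when each library was left out and changed sign without control replicate 1 (0.0026) and without ADP-CM replicate 2 (0.0078). Over all tested genes, 951 were lowered and 1027 raised with DESeq2, of 12241 genes with an adjusted p-value. With edgeR 1650 and 1707 of 12663 were, and 1281 to 1574 and 1347 to 1632 when each library was left out.

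Counts of the further lists are small and moved more. With DESeq2, 1 APC/C subunit was lowered and 1 raised, 5 centromere and kinetochore genes, 5 spindle genes and 3 condensin and cohesin genes were lowered, 0 condensin and cohesin genes and 1 DREAM and MYB-MuvB gene were raised. At an adjusted p-value under 0.05, 4 genes of the APC/C list, 9 condensin and cohesin genes and 8 DREAM and MYB-MuvB genes were lowered. At that limit 1 centromere and kinetochore gene, 2 spindle genes and 4 condensin and cohesin genes were raised. The shares of all tested genes printed above are for an adjusted p-value under 0.01 and are not the background of these counts. When each library was left out, the lowered genes ranged from 1 to 3 for the APC/C list, 6 to 13 for centromere and kinetochore, 5 to 12 for spindle, 3 to 5 for condensin and cohesin, 9 to 11 for entry kinases, 3 to 4 for DREAM and MYB-MuvB and 19 to 23 for replication genes. The raised genes ranged from 1 to 2, 0 to 1, 1 to 2, 0 to 2, 1 to 2, 1 to 2 and 0 to 0 in the same order. The cause of these moves was not tested.

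Replicate numbers are shared by the groups, but same-numbered libraries deviated together by correlations of 0.063, 0.025 and 0.092, under the limit of 0.1 set for pairing, although each library correlated best with its own number. With the replicate number as a block 29 members were lowered, CDC25C being added (adjusted p-value 0.00951, edgeR). Changes of the size seen here rest on the small spread between libraries, which may be technical.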
